A study of Rattus norvegicus with 192 samples.

Results

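Cyp1a1, Cyp1a2 and Tiparp are transcripts that the aryl hydrocarbon receptor (AhR) is known to induce. They were picked by symbol, and each is read by 1 of the 22253 probes of the table (Cyp1a1_8415, Cyp1a2_8416 and Tiparp_10024). Expression was profiled by TempO-Seq, in which pairs of short detector oligonucleotides that meet on a transcript are joined, amplified and counted. The cells were hepatocytes taken from the livers of male rats and kept in culture on collagen, and they were exposed for 24 h. The 29 test chemicals were each given at 6 doses in DMSO, 1 library per dose, up to 100 µM for 16 of them and 33.3 µM for 13. A further 9 reference chemicals had 1 library each and 9 libraries received 0.1% DMSO alone.

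AhR is a ligand-activated transcription factor that waits in the cytosol with chaperones. Once a ligand such as a dioxin or a planar aromatic compound binds, it moves into the nucleus, pairs with ARNT and binds DNA at sites with the core GCGTG. Cyp1a1 encodes a monooxygenase that is near silent in resting liver and oxidises many of the compounds that induce it. Cyp1a2, its closest relative, is expressed in hepatocytes without any inducer and metabolises caffeine and aromatic amines. Tiparp encodes a mono-ADP-ribosyltransferase (PARP7) that modifies AhR and limits its activity, and other stimuli induce it as well.

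The promoters of Tiparp and Cyp1a2, from RefSeq for GRCr8, are printed because AhR acts through that core. The stretch covers the 250 bases before the start of transcription, 5′ to 3′ on the strand of the gene, with the match in capitals.
Tiparp, chr2:152063519-152063768, plus strand: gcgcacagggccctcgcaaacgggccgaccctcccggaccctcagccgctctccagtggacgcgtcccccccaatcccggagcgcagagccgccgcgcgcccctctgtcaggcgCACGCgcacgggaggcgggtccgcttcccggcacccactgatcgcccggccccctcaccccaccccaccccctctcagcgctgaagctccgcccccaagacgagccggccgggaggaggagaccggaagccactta
Cyp1a2, chr8:66978150-66978399, minus strand: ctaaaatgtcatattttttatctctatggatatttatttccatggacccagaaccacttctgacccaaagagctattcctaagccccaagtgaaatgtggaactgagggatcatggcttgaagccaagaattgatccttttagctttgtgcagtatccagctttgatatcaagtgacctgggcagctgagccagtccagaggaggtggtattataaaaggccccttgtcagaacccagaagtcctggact
Both strands were searched for GCGTG and for the longer TNGCGTG, which contains it. The Tiparp promoter held 1 GCGTG, on the opposite strand, from base 136 to base 132 before the start, and 0 TNGCGTG. The Cyp1a2 promoter held 0 of either. Of 33469 promoters of the same length 25.9% held GCGTG and 4.09% held TNGCGTG. Cyp1a1 and Cyp1a2 are neighbours on chromosome 8, with 0 genes of the RefSeq table between them.

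Total counts ran from 582071 to 11249014 per library with a median of 5745085, and levels are given as CPM, the count scaled by that total. DMSO replicate 1 stood apart from the others: the r of its log2 CPM with replicates 2 to 9 was 0.740 to 0.845, against 0.920 to 0.986 among those 8. Replicates 2 to 9 served as controls. Libraries were spread over 3 plates (90, 90 and 12), read from the number in each well label. All 9 hepatocyte markers with a probe were detected in every library, and their summed level was 28666 to 49791 CPM in DMSO replicates 2 to 9. It lay below that range in 37 of 174 treated libraries, 12 of them at a chemical's highest dose. Ttr weighs most in that sum, with a control median of 15640 CPM against 30942 CPM for the sum. The labels do not say whether wells came from separate animals or cultures, and the p-values speak only of the scatter among these wells. In a bulk sample, fewer cells of a type and less RNA per cell cannot be told apart.

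Without any chemical the 3 genes lay far apart in counts. Cyp1a1 was at 0 CPM in the lowest of DMSO replicates 2 to 9, 1.15 in the median library and 3.40 in the highest. Cyp1a2 was at 29.5, 61.5 and 87.2 CPM and Tiparp at 20.9, 29.5 and 45.0 CPM on the same scale. Each probe has its own efficiency, so these levels are not a ranking of transcript abundance between genes. The mean of Cyp1a1 was 1.28 ± 1.11 CPM (SD, n = 8), and the counts behind it were 0 to 18 per library, so its control level is known only loosely. The means of Cyp1a2 and Tiparp were 62.4 ± 18.2 and 30.6 ± 7.14 CPM (SD, n = 8). By plate, Cyp1a1 was at 1.02 and 0.522 CPM on plate 1, at 0.250, 0 and 1.28 on plate 2 and at 1.88, 1.88 and 3.40 on plate 3. All 3 libraries of plate 3 thus lay above the other 5. In edgeR's quasi-likelihood test over plates none of the 3 genes passed (adjusted p = 0.855 for each, unadjusted p = 0.0304 for Cyp1a1, 0.283 for Cyp1a2 and 0.0841 for Tiparp). The test called 0% of 11055 probes, and 472 had an unadjusted p under 0.05.

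Cyp1a1 rose with 7 of the 29 chemicals, more often than nearly all other probes: 15 of 11055 probes (0.136%) rose with as many chemicals or more. Over all probes and chemicals, 0.95% of tests gave a rise. The test was edgeR's quasi-likelihood F test of a dose trend, run on 1 chemical at a time with a term for the plate. The p-values were adjusted after Benjamini and Hochberg over all probes tested. The fitted change is printed on the log2 scale at 33.3 µM with its standard error. The 7 chemicals were the fungicides tetraconazole, fludioxonil, triflumizole, hexaconazole and cyprodinil, the insecticide carbaryl and the herbicide simazine. Of these, 3 lay wholly on plate 1, 3 on plate 2, and simazine had its 3 higher doses on plate 1 and the others on plate 2.

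**Figure D1:**
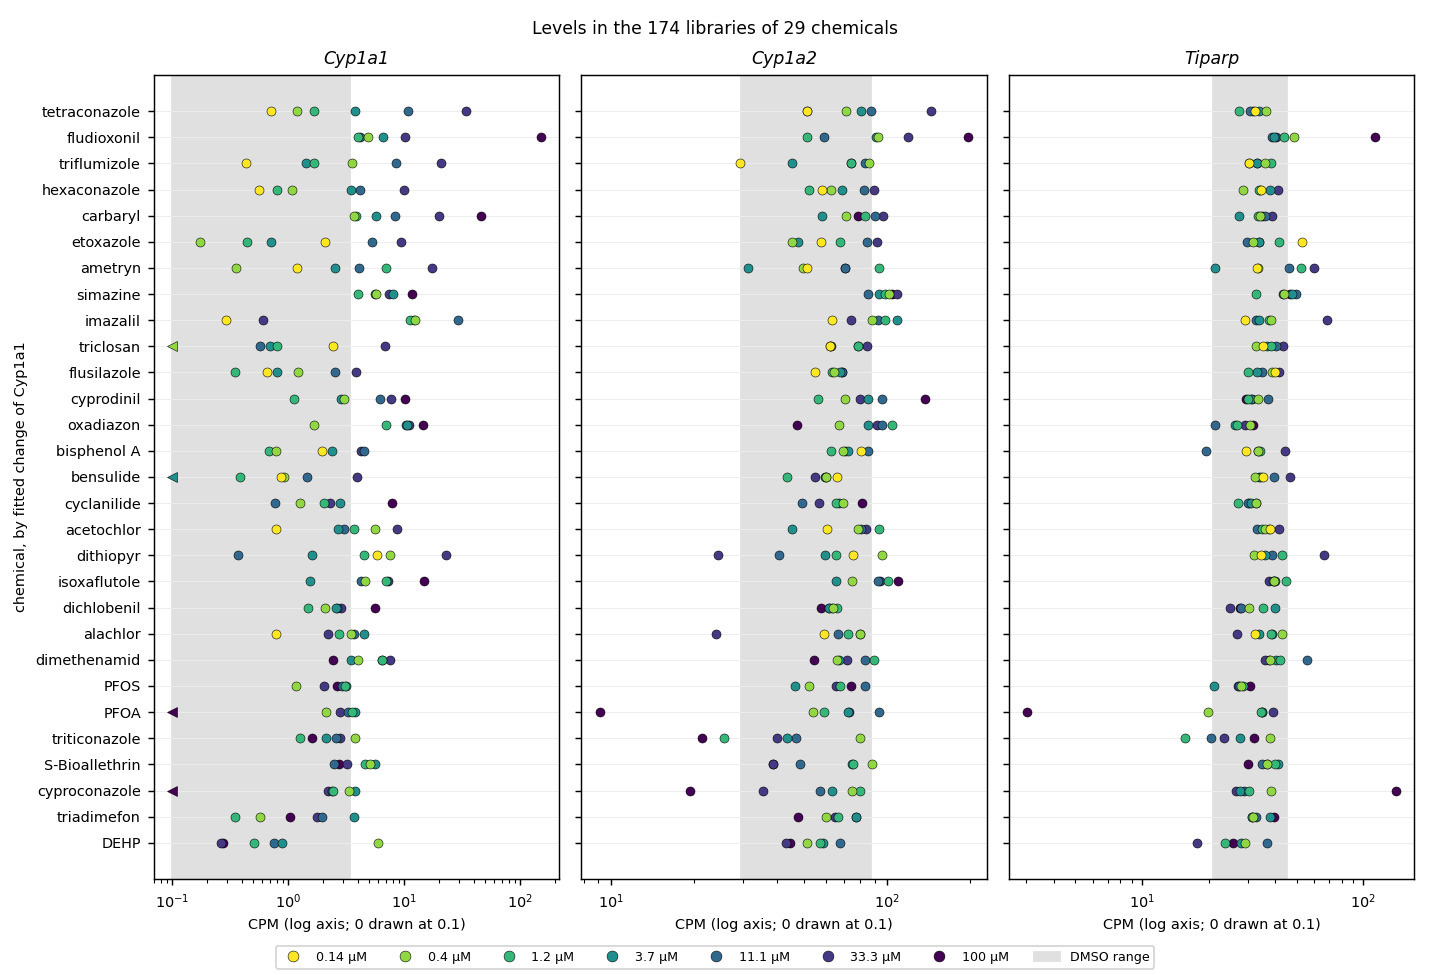
CPM of each gene (x, log axis, with 0 drawn as a triangle at 0.1) in the 174 treated libraries, 1 row per chemical and 1 colour per dose, with the range of DMSO replicates 2 to 9 in grey. Points of Cyp1a1 lie to the right of the grey range in 80 libraries, those of Cyp1a2 in 34 and those of Tiparp in 14.

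Of the trends fitted to 1 chemical at a time, that of tetraconazole was the largest. Cyp1a1 was at 0.718, 1.19, 1.67, 3.81, 10.8 and 34.5 CPM from 0.14 to 33.3 µM, so each dose was higher than the one before and the upper 3 lay above every control. The fitted change was 5.60 ± 0.37 (adjusted p = 4.58e-07 in edgeR's test), and 0.308% of probes rose with tetraconazole.

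With fludioxonil Cyp1a1 reached its highest level in the study. It was at 4.91, 4.06, 6.53, 4.16 and 10.2 CPM from 0.4 to 33.3 µM and at 151 CPM at 100 µM (95% counting interval 140.5 to 163.1, which covers counting error only). All 6 doses lay above every control, and the step from 33.3 to 100 µM exceeded all the others. The fitted change was 4.62 ± 0.53 (adjusted p = 0.00359 in edgeR's test, 0.0452% of probes higher), and without the 100 µM library it was 2.57 and did not pass.

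Carbaryl, a carbamate insecticide, gave the most even course. Cyp1a1 was at 3.74, 3.89, 5.75, 8.40, 20.1 and 46.1 CPM from 0.4 to 100 µM, each dose above every control and above the dose before. The fitted change was 3.77 ± 0.38 (adjusted p = 0.000398 in edgeR's test, 0.0452% of probes higher).

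With triflumizole, an imidazole, the rise came at the upper doses. Cyp1a1 was at 0.433, 3.57, 1.68, 1.42, 8.61 and 20.8 CPM from 0.14 to 33.3 µM, and the fitted change was 4.39 ± 0.60 (adjusted p = 0.00289 in edgeR's test, 0.271% of probes higher). The levels with hexaconazole, a triazole like tetraconazole, were lower, at 0.560, 1.08, 0.804, 3.51, 4.15 and 10.1 CPM. Its fitted change was 3.85 ± 0.49 (adjusted p = 0.00126, 0.0905% of probes higher). Neither passed without its highest dose (adjusted p = 0.719 and 0.251).

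Simazine and cyprodinil passed narrowly. Under simazine Cyp1a1 was at 5.69, 3.98, 8.0, 5.61, 7.42 and 11.8 CPM from 0.4 to 100 µM, above every control from the lowest dose on and with little slope. The fitted change was 3.30 ± 0.64 (adjusted p = 0.0485 in edgeR's test, 0.0452% of probes higher), and the call was lost under 14 of 21 alternatives. Under cyprodinil it was at 3.06, 1.14, 2.89, 6.17, 7.69 and 10.1 CPM, with a fitted change of 2.43 ± 0.45 (adjusted p = 0.0369, 0.136% of probes higher) that was lost under 11 of 21. The alternatives that lost either call include the fit with DMSO replicate 1 and the one without the highest dose.

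Of the 7 highest-dose libraries 3 had a sum of hepatocyte markers below every control. The sums were 23620 CPM with fludioxonil, 25655 with tetraconazole and 26689 with simazine, against 28666 in the lowest control. Their part in the rise of Cyp1a1 was not tested.

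**Figure D2:**
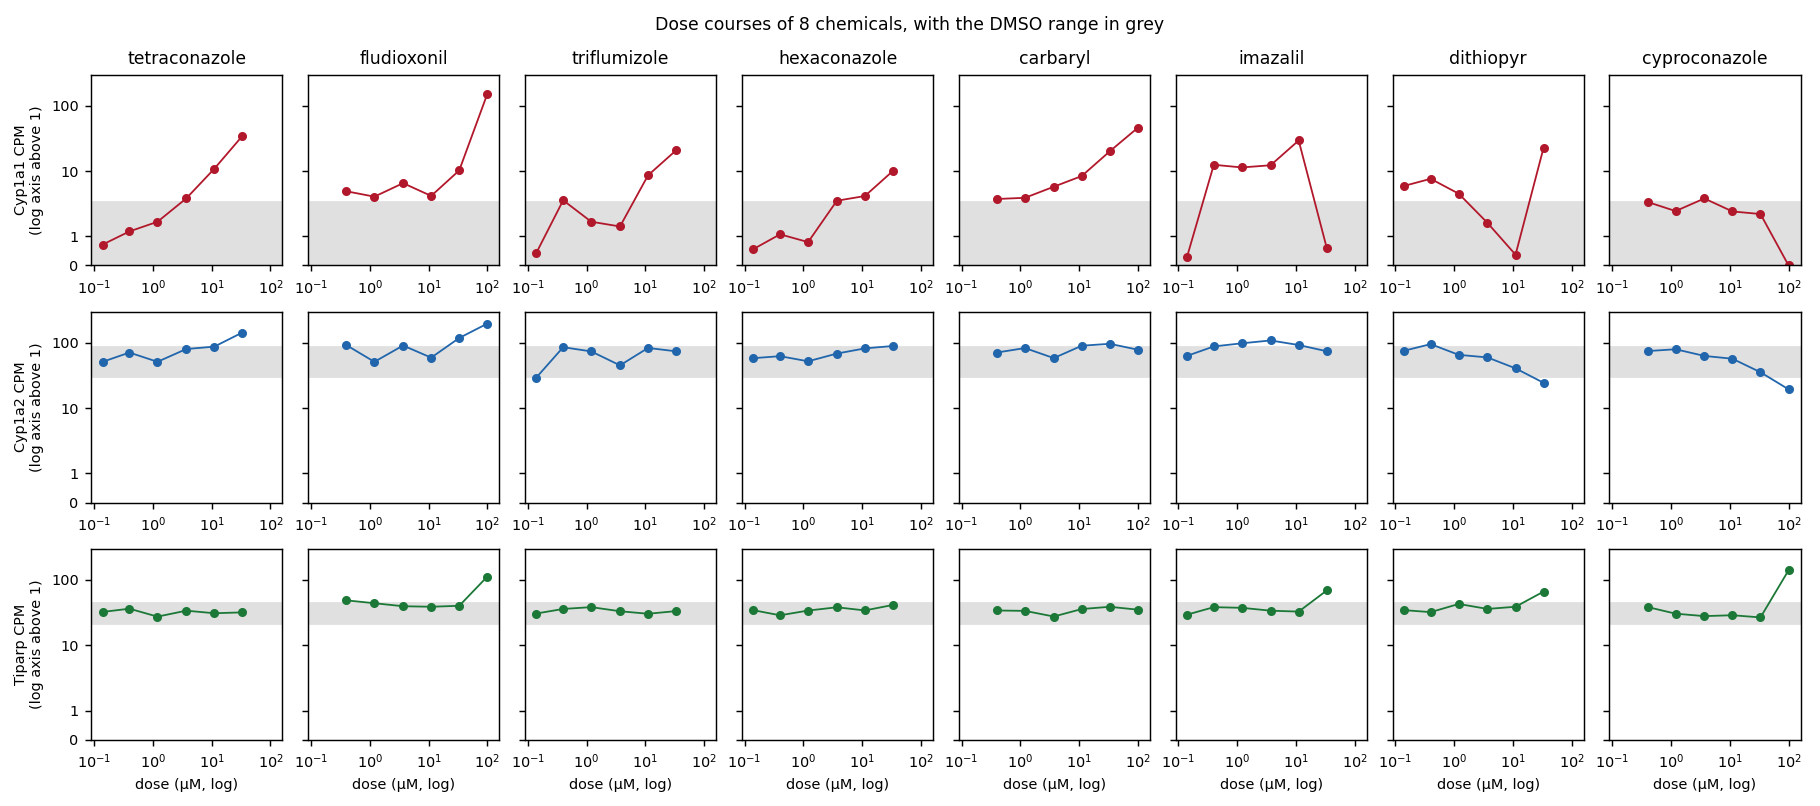
CPM (y, log axis above 1, linear below) against dose (x, µM, log axis) for 8 chemicals, 1 library per point, with the range of DMSO replicates 2 to 9 in grey. Cyp1a1 climbs with tetraconazole and carbaryl, drops back at the highest dose of imazalil, and Tiparp leaves the grey range at the highest dose of fludioxonil, imazalil, dithiopyr and cyproconazole.

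A dose trend is blind to courses that turn back, and imazalil had one. Under this imidazole Cyp1a1 was at 0.290 CPM at 0.14 µM, at 12.5, 11.4, 12.3 and 29.4 CPM from 0.4 to 11.1 µM, and at 0.605 CPM at 33.3 µM. The 4 middle doses lay above every control and both ends lay within the control range. The fitted trend was 2.56 ± 1.68 and did not pass (adjusted p = 0.314 in edgeR's test). In the 33.3 µM library the hepatocyte markers summed to 14848 CPM, under the lowest control, and the macrophage markers to 157 CPM against 48.3 to 89.4 in the controls. Most of that macrophage sum was Cd68, with 812 of the library's 6614172 counts, its highest count of all libraries. None of the other macrophage markers had its highest count there. The part of these marker levels in the drop was not tested.

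Dithiopyr gave the opposite shape. Cyp1a1 was at 5.91, 7.61, 4.50, 1.61 and 0.369 CPM from 0.14 to 11.1 µM and at 22.8 CPM at 33.3 µM, so levels above every control stood at both ends of the range. The fitted trend, 2.02 ± 0.99 (adjusted p = 0.19), turned to -2.99 without the 33.3 µM library.

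Ametryn and oxadiazon came close to the threshold. Cyp1a1 reached 17.6 CPM at 33.3 µM of ametryn, with a fitted change of 3.62 ± 0.80 (adjusted p = 0.0539 in edgeR's test). Under oxadiazon it was at 1.67 CPM at 0.4 µM and then at 7.04 to 14.6 CPM over the other 5 doses, an early step with little rise after it (2.40 ± 0.59, adjusted p = 0.056). Etoxazole had a change of 3.68 ± 0.74 with levels up to 9.37 CPM, but its adjusted p was 0.651, in a comparison where no probe of 11055 passed and 273 had an unadjusted p under 0.05.

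Over all 29 chemicals the fitted trend of Cyp1a1 was above 0 for 27 and below it for 2, with a median of 2.36. The negative ones were DEHP (-2.04 ± 1.15, adjusted p = 0.639) and triadimefon (-0.25 ± 0.63, adjusted p = 0.919). Since chemicals share their controls, these signs are not independent. Of the 174 treated libraries 80 (46.0%) had Cyp1a1 above the highest control, against 11.2% over all probes. At the highest dose this was so for 19 chemicals, against a share of 15.7% over all probes. The lowest doses were often high too: on plate 2, 12 of 14 lowest-dose libraries lay above the 3 controls of that plate (1.17 to 6.01 against 0 to 1.28 CPM), a share of 85.7% against 22% over all probes. On plate 1 it was 6 of 14 (42.9% against 33.3%). A fitted trend therefore holds, beside any slope between doses, a step between treated and control libraries of the plate.

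**Figure D3:**
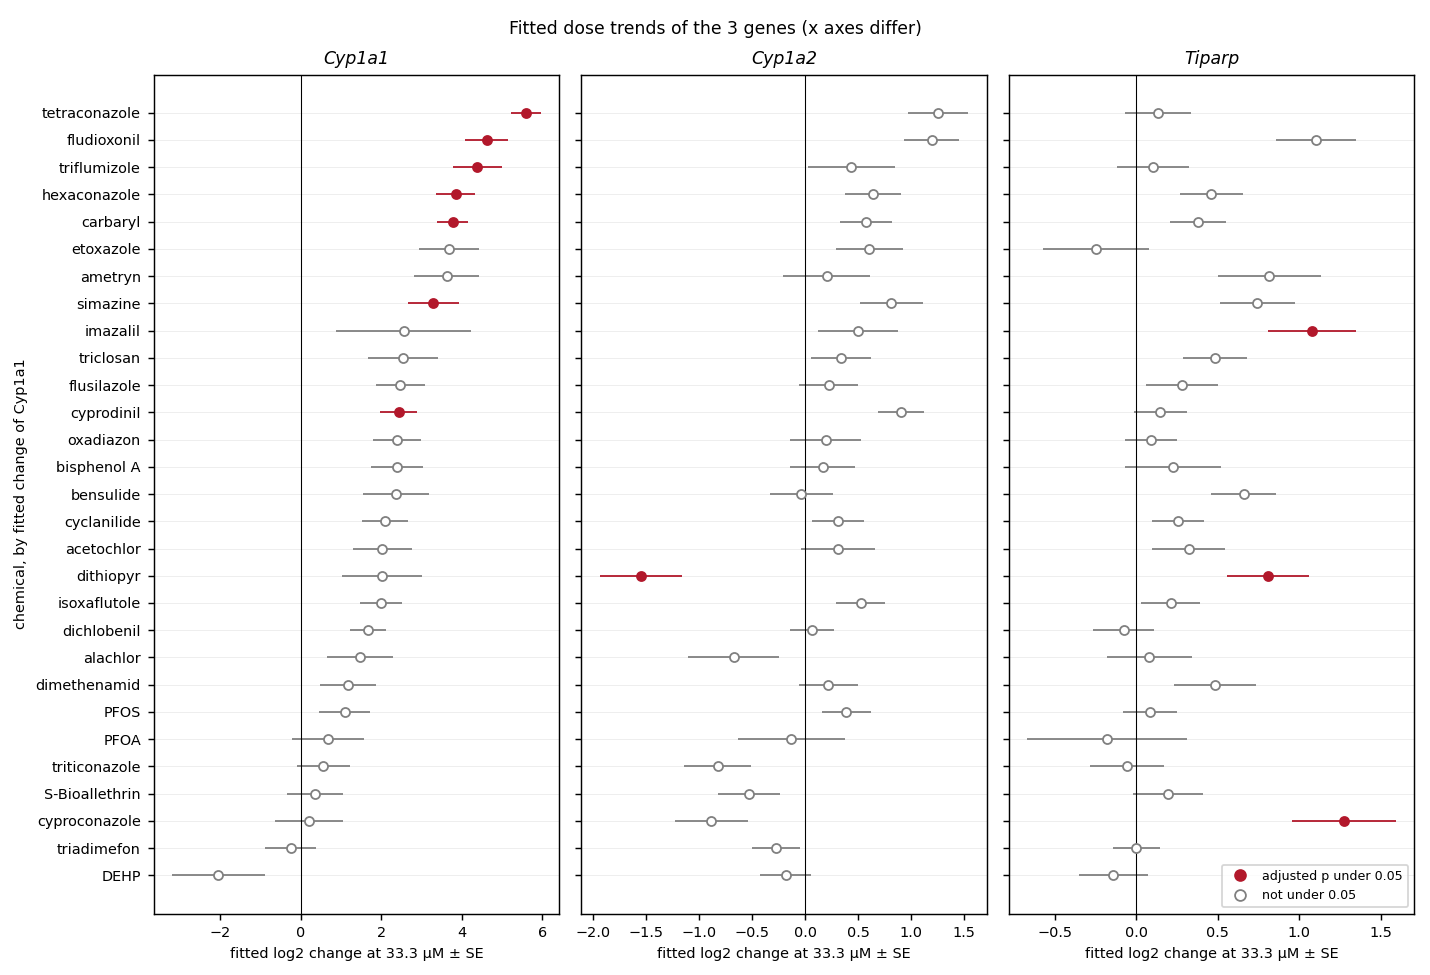
Fitted log2 change at 33.3 µM (x, with bars of ± 1 SE, axes differ between genes) for the 29 chemicals, ordered by Cyp1a1, with calls at an adjusted p under 0.05 filled in red. Calls of Cyp1a1 run from 2.43 to 5.60, the single call of Cyp1a2 is negative and the 3 calls of Tiparp lie between 0.81 and 1.28.

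The perfluorinated acids and several azoles had no call for Cyp1a1. It was at 1.17 to 3.14 CPM over the doses of PFOS, none above every control. Under PFOA it was at 2.13 to 3.76 CPM up to 33.3 µM and at 0 counts at 100 µM, which allows up to 1.30 CPM at 3 counts of that library's total. Cyproconazole gave 2.20 to 3.81 CPM up to 33.3 µM and 0 counts at 100 µM, which allows up to 2.24 CPM. At this depth neither 0 can be told from the control median of 1.15 CPM. Triticonazole (0.57 ± 0.66, adjusted p = 0.66) and flusilazole (2.48 ± 0.62, adjusted p = 0.105) did not pass.

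Cyp1a2 moved far less than Cyp1a1. Fitted 1 chemical at a time, it passed the test with 1 chemical, as a fall, where 29.6% of the 11055 probes passed with 1 chemical or more. Under dithiopyr, a pyridine herbicide, it was at 75.4, 95.4, 65.4, 59.7, 40.6 and 24.4 CPM from 0.14 to 33.3 µM, falling at each dose from 0.4 µM on and ending below every control. The fitted change was -1.55 ± 0.39 (adjusted p = 0.017 in edgeR's test, 6.74% of probes lower). The fall did not pass with DMSO replicate 1, with the rank of the dose or without the highest dose. At 33.3 µM the hepatocyte markers summed to 14493 CPM, the lowest of the treated libraries and under all 8 controls. The part of that in the fall was not tested.

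No rise of Cyp1a2 passed in edgeR's test of 1 chemical at a time, although its highest levels stood where Cyp1a1 was high. With fludioxonil it was at 92.3, 51.1, 90.8, 59.2, 118 and 197 CPM, the last its highest level in the study, and the change was 1.19 ± 0.26 (adjusted p = 0.16). With tetraconazole it was at 51.1, 70.9, 51.2, 80.3, 87.3 and 144 CPM, a change of 1.25 ± 0.29 (adjusted p = 0.0871). Cyprodinil reached 138 CPM at 100 µM (0.90 ± 0.21, adjusted p = 0.207). DESeq2 called all 3 of these rises, as did the fit with the first principal component as a covariate. All 3 highest-dose libraries lay above every control. The share of probes above every control in these libraries was 23.9% with fludioxonil, 14.7% with tetraconazole and 10.4% with cyprodinil.

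Low levels of Cyp1a2 came with 3 triazole or perfluorinated treatments as well. It was at 19.4 CPM at 100 µM of cyproconazole (-0.89 ± 0.34, adjusted p = 0.121), at 21.4 CPM at 100 µM of triticonazole (-0.83 ± 0.32, adjusted p = 0.144) and at 9.11 CPM at 100 µM of PFOA (-0.13 ± 0.51, adjusted p = 0.904). These libraries are among the 7 of 174 with Cyp1a2 below every control. In 34 (19.5%) it lay above every control, against 11.2% over all probes. The share of all probes below every control over the 174 libraries was not computed. The share of all probes below every control was 39.8% in the cyproconazole library, 17.1% in that of triticonazole and 52.3% in that of PFOA. The hepatocyte markers summed to 17224, 26927 and 45579 CPM in these libraries, so the first and second were under the control range. Over the 29 chemicals 20 fitted changes of Cyp1a2 were above 0 and 9 below, with a median of 0.22.

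Fitted 1 chemical at a time, Tiparp rose with 3 chemicals, and over all probes 1.75% rose with as many chemicals or more. None of the 3 passed for Cyp1a1 in these fits. The model of all 29 chemicals given below did call Cyp1a1 with imazalil and dithiopyr, which are among them. How often the calls of other probes fail to overlap was not computed. With cyproconazole Tiparp was at 38.4, 30.4, 27.9, 28.8 and 26.6 CPM up to 33.3 µM, all inside the control range, and at 140 CPM at 100 µM. The fitted change was 1.28 ± 0.32 (adjusted p = 0.0239 in edgeR's test, 5.83% of probes higher) and rested on that library: without it the change was -0.093. The 100 µM library held 1340300 counts, the fewest of the 174 treated ones, and Cyp1a1 was at 0 counts in it.

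Imazalil and dithiopyr gave the same shape at a lower level. Tiparp was at 29.3 to 38.2 CPM from 0.14 to 11.1 µM of imazalil and at 68.8 CPM at 33.3 µM (1.08 ± 0.27, adjusted p = 0.0245, 7.68% of probes higher). It was at 32.1 to 42.8 CPM up to 11.1 µM of dithiopyr and at 66.2 CPM at 33.3 µM (0.81 ± 0.25, adjusted p = 0.0449, 6.26% of probes higher). In these 3 comparisons many probes were called, and in all 3 highest-dose libraries the sum of hepatocyte markers lay below every control. The part of that in the rise of Tiparp was not tested. Endothelial and stellate markers summed to 35.1 and 17.2 CPM in the cyproconazole library, above the controls (13.8 to 20.0 and 5.01 to 9.74 CPM). Tiparp was at 124 CPM in DMSO replicate 1, and with all 9 DMSO libraries in the fit none of the 3 rises passed.

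At 100 µM of fludioxonil all 3 genes lay above every control. They did so at lower levels at 100 and 3.7 µM of simazine, at 1.2 µM of ametryn and at 0.4 µM of fludioxonil. With fludioxonil Tiparp was at 48.6, 43.9, 39.5, 38.8 and 40.1 CPM from 0.4 to 33.3 µM and at 112 CPM at 100 µM. The change was 1.10 ± 0.25 and did not pass in edgeR's test (adjusted p = 0.16). It did pass by DESeq2, without the plate term and without the 33.3 µM library. Where Cyp1a1 rose with other chemicals Tiparp did not pass. It was at 27.4 to 36.2 CPM with tetraconazole (0.13 ± 0.20, adjusted p = 0.85), at 27.5 to 38.7 CPM with carbaryl (0.38 ± 0.17, adjusted p = 0.453) and at 30.3 to 38.3 CPM with triflumizole (0.10 ± 0.22, adjusted p = 0.999). The change was 0.74 ± 0.23 with simazine (adjusted p = 0.175), 0.46 ± 0.19 with hexaconazole (0.893) and 0.15 ± 0.16 with cyprodinil (0.959). In edgeR's test the unadjusted p was 0.0055 with simazine, 0.0307 with hexaconazole and 0.0418 with carbaryl. The rise with simazine did pass with the first principal component as a covariate. At 100 µM of PFOA Tiparp was at 3.04 CPM, its lowest level in the study, in the library with 52.3% of all probes below every control. Of 174 treated libraries 14 (8.05%) had Tiparp above every control, against 11.2% over all probes. In 6 it lay below every control, for which no share over all probes was computed.

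**Figure D4:**
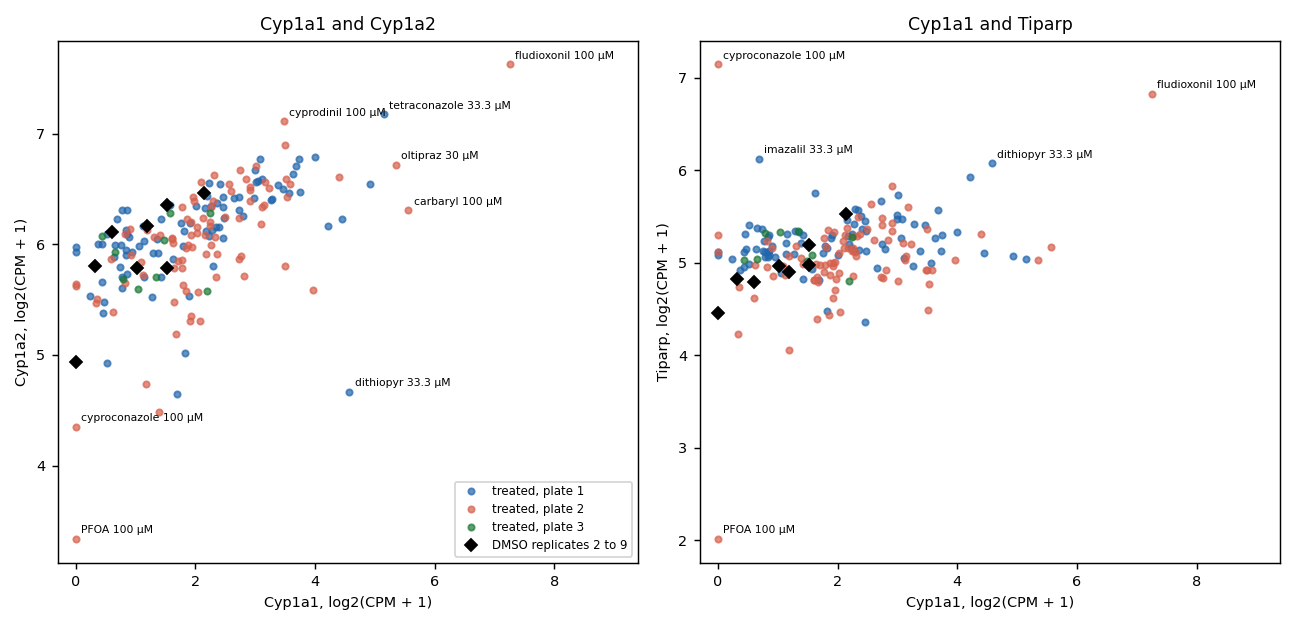
log2(CPM + 1) of Cyp1a1 (x) against Cyp1a2 (left) and Tiparp (right) in 191 libraries, coloured by plate, with DMSO replicates 2 to 9 as black diamonds and some libraries named. Most points of the left panel rise together while dithiopyr 33.3 µM falls below them; in the right panel cyproconazole 100 µM has the highest Tiparp at a Cyp1a1 of 0.

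Across the 191 libraries without DMSO replicate 1 the 2 Cyp1a genes varied together more than either did with Tiparp. The r of log2 CPM between Cyp1a1 and Cyp1a2 was 0.54 (rho 0.65), with 0.52 on plate 1 and 0.62 on plate 2. Among 11054 other probes Cyp1a2 ranked 27 in likeness to Cyp1a1 over all these libraries, 105 on plate 1 and 1 on plate 2. The values with Tiparp were 0.26 for Cyp1a1 (rho 0.25) and 0.38 for Cyp1a2 (rho 0.32), and that between Cyp1a2 and Tiparp was 0.13 on plate 1 and 0.47 on plate 2. These libraries share plates, controls and depth, so the coefficients are descriptions. The first principal component of the libraries held 33.31% of the variance of the 5563 best measured probes. Cyp1a2 followed it with r = -0.68 and Tiparp with r = -0.55, while Cyp1a1 hardly did (r = -0.13).

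Among the tested probes, those most like Cyp1a1 over those 191 libraries included Ptgr1 (r = 0.69), Agtpbp1 (0.64), Fer1l5 (0.62) and Pcsk6 (0.61). Ptgr1 encodes a reductase of prostaglandins and leukotrienes, and its highest level, 859 CPM against a control median of 171, was at 33.3 µM of triflumizole. Those most like Cyp1a2 included P4ha2 (0.79), LOC259245 (0.77), Gbe1 (0.76) and Cxadr (0.76), of which Gbe1 encodes the glycogen branching enzyme. The 5 most like Tiparp were Cstb1 (0.74), Kdm4c (0.74), LOC1003650620.7 (0.74), Lrrc58 (0.73) and Ccdc58 (0.72). The first 4 of these had their highest level at 100 µM of cyproconazole, the library that also held the highest Tiparp of the treated ones. The 3 genes had no neighbour in common among these probes.

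Among the reference chemicals Cyp1a1 was highest with oltipraz. In the library with 30 µM of this dithiolethione, which induces NRF2 targets, Cyp1a1 was at 39.7 CPM (95% counting interval 33.5 to 46.8), above every control. The change was 5.95 ± 0.62 (adjusted p = 0.00211 in edgeR's test, 0.434% of probes higher), on the assumption that the lone library varies as controls do. With all 9 DMSO libraries the call was lost (adjusted p = 0.129). Sulforaphane at 10 µM gave 4.59 ± 1.18 (adjusted p = 0.0168), from 6 counts in the shallowest library of the series, where 9.93% of probes rose. That level of 10.3 CPM has a counting interval of 3.78 to 22.4 CPM, and the call was lost without the plate term.

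**Figure D5:**
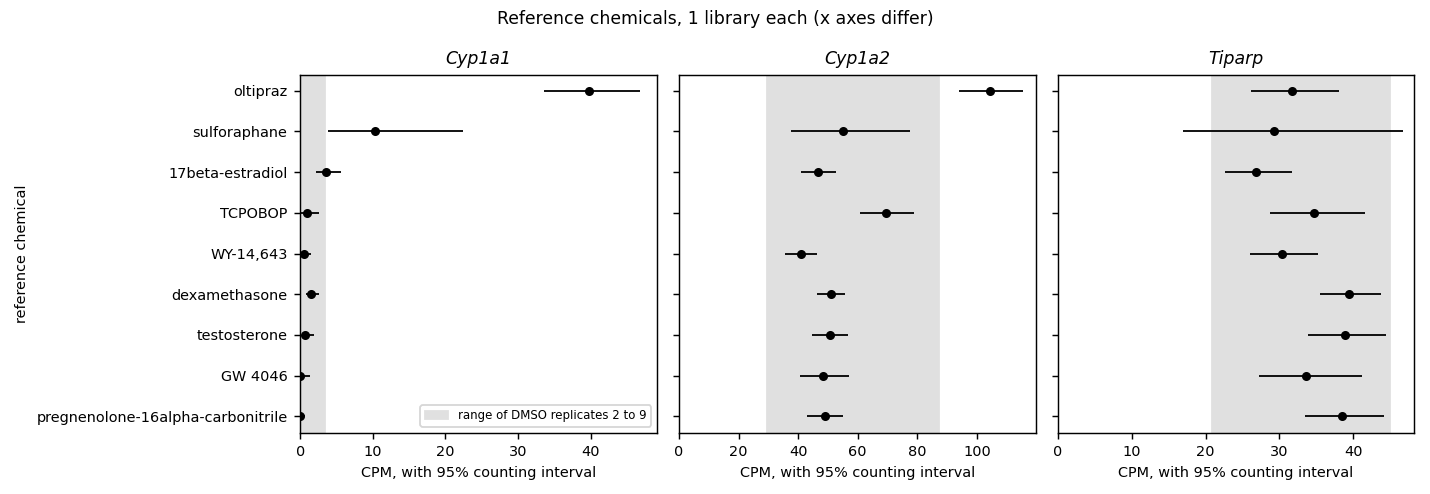
CPM (x, axes differ) of each gene with the 9 reference chemicals, 1 library each, with 95% counting intervals as bars and the range of DMSO replicates 2 to 9 in grey. Oltipraz lies to the right of the grey range for Cyp1a1 and Cyp1a2, and all points of Tiparp lie inside it.

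With the other 7 reference chemicals Cyp1a1 was at or below 3.59 CPM. It was at 0 counts with GW 4046 and with pregnenolone-16alpha-carbonitrile, an activator of PXR, which allows up to 1.05 and 0.557 CPM. It was at 0.875 CPM with TCPOBOP, an activator of mouse CAR, at 0.533 with the PPARα agonist WY-14,643 and at 3.59 with 17beta-estradiol, just above the highest control. Dexamethasone and testosterone gave 1.53 and 0.730 CPM. Cyp1a2 and Tiparp passed with 0 of the 9 reference chemicals, where 3.65% of all tests over probes and chemicals passed. Neither had an unadjusted p under 0.05 or a call by DESeq2 with any of the 9. Cyp1a2 was at 104 CPM with oltipraz, above every control (0.85 ± 0.38, adjusted p = 0.356), and at 40.8 to 69.4 CPM with the other 8. Tiparp was at 26.8 to 39.5 CPM with all 9.

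Related chemicals were compared by differences of dose trends at doses that both sides had, in 4 comparisons for each of the 3 genes. The 2 imidazoles (imazalil and triflumizole) and the 6 triazoles (cyproconazole, flusilazole, hexaconazole, tetraconazole, triadimefon and triticonazole) are fungicides with different nitrogen rings. The imidazoles lay on plate 1 and the triazoles on all 3 plates, with plate as a factor in the fit. Tiparp rose more with the imidazoles, by 0.54 (95% interval 0.20 to 0.87, adjusted p = 0.0448 in edgeR's test), where 3.53% of probes were called higher. That call was lost with DMSO replicate 1 (0.12), without the highest shared dose (0.20) and with the rank of the dose (adjusted p = 0.0602). Fitted alone, only imazalil of the imidazoles had a rise that passed, and triflumizole had a change of 0.10 (adjusted p = 0.999). The largest Tiparp trend of all was with a triazole, cyproconazole, whose 100 µM library is not in this comparison of shared doses. For Cyp1a1 the difference was 2.50 (0.89 to 4.11, adjusted p = 0.0526) and for Cyp1a2 0.45 (-0.015 to 0.92, adjusted p = 0.235).

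The other pairs did not pass for any of the 3 genes, in comparisons that called 0.00905%, 0% and 4.03% of probes. Ametryn carries a methylthio group where simazine has chlorine, and it differed from simazine in Cyp1a1 by 0.68 (-1.35 to 2.71, adjusted p = 0.984). Acetochlor and alachlor, chloroacetamides that differ in their alkyl groups, had a difference of 0.86 (-0.82 to 2.54, adjusted p = 0.52). PFOA, a carboxylic acid, and PFOS, a sulfonic acid, had one of 0.06 (-1.40 to 1.53, adjusted p = 0.98). For Cyp1a2 these differences were -0.78 (-1.78 to 0.22), 0.79 (-0.080 to 1.66) and -0.24 (-1.11 to 0.62). For Tiparp they were 0.04 (-0.76 to 0.84), 0.16 (-0.35 to 0.66) and -0.0033 (-0.84 to 0.83). The intervals for Cyp1a1 leave room for changes of several fold either way, since 1 library stands for each dose.

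Neighbours in the order of the chemicals could not be told apart. With all 29 chemicals in 1 model at doses up to 33.3 µM (166 libraries), the fitted change of Cyp1a1 ran from 4.98 ± 0.74 with imazalil to -3.33 ± 1.52 with DEHP. Only neighbours in the order, the smallest gaps by construction, were compared, and pairs further apart were not tested. For each gene 0 of 28 neighbouring pairs passed or had an unadjusted p under 0.05 in edgeR's test, and the smallest p was 0.24 for Cyp1a1, 0.305 for Cyp1a2 and 0.437 for Tiparp. Imazalil was ahead of tetraconazole by 0.98 ± 0.99. Imazalil was not called when fitted alone, and its course turns back at 33.3 µM, so its rank depends on the model. The calls of Cyp1a1 depended on the model too. In edgeR's test the joint model called 5 rises, with imazalil, tetraconazole, triflumizole, ametryn and dithiopyr. Carbaryl (adjusted p = 0.43), fludioxonil (0.338), hexaconazole (0.563), simazine (0.225) and cyprodinil (0.718) did not pass in it. The share of all probes that the joint model called with each chemical was not computed, so its calls stand without a background. For Cyp1a2 the joint model called rises with tetraconazole (0.93, adjusted p = 0.0243) and imazalil (0.75, adjusted p = 0.0192). It also called falls of Cyp1a2 with dithiopyr (-1.05, adjusted p = 0.0114) and triticonazole (-1.07, adjusted p = 0.00407). For Tiparp it called rises with imazalil, dithiopyr and ametryn and a fall with triticonazole.

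Of 9 further genes of the AhR battery, 7 had a probe under the symbol used and 3 passed the filter on low counts. Gsta2, a glutathione transferase subunit, rose with 14 of 29 chemicals, where 0.95% of tests over all probes and chemicals gave a rise. Those 14 include 5 of the 7 that raised Cyp1a1, an overlap that was not compared with that of other probes. With DMSO replicate 1 in the fit 13 of the 14 calls were lost, all but that of dithiopyr. The fitted change of Gsta2 was 3.16 with triflumizole, 2.67 with dithiopyr and 1.86 with tetraconazole, and its close paralogs may share the probe. Nqo1, a quinone reductase that NRF2 induces too, rose with triflumizole (2.06), dithiopyr (1.51) and PFOS (0.71) and fell with PFOA (-0.74). With replicate 1 the call of triflumizole was the 1 of these 4 that passed. Nfe2l2, which encodes NRF2, passed with 0 of the 29 chemicals in edgeR's test (6 at an unadjusted p under 0.05) and with 4 by DESeq2. With oltipraz, Gsta2 rose by 2.76 and Nqo1 by 2.56, and with replicate 1 the call of Gsta2 was lost (adjusted p = 0.385). Calls of Cyp1a1 and Nqo1 did not go together throughout: tetraconazole, fludioxonil and carbaryl raised Cyp1a1 without a call for Nqo1. Those comparisons called only 51, 8 and 9 of 11055 probes, so a missing call does not show that Nqo1 was unchanged. In edgeR's test Nqo1 had an unadjusted p under 0.05 with 12 of the 29 chemicals and was called with 4.

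Battery genes below the filter showed single libraries with counts. Cyp1b1, a further CYP1 monooxygenase, had 43 counts (9.25 CPM) at 100 µM of fludioxonil, 17 (4.69 CPM) with oltipraz and 11 (1.66 CPM) at 33.3 µM of imazalil, against at most 0.854 CPM in the controls. Aldh3a1, an aldehyde dehydrogenase, had 15 counts (3.24 CPM) at 100 µM of cyprodinil and 5 (1.08 CPM) at 100 µM of fludioxonil, against at most 0.348 CPM. Ahrr, the AhR repressor, had at most 4 counts in any library, so no change of it was detectable at this depth. Of these Cyp1b1 libraries, those of fludioxonil and oltipraz held the highest Cyp1a1 among chemicals and among references, while that of imazalil had Cyp1a1 at 0.605 CPM.

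Among the receptor and its partners 1 rise and 1 fall were called over the 29 chemicals. Over all probes and chemicals 5331 of 320595 tests were called. Of 9 genes 8 had a probe and 7 were tested, among them Ahr, Arnt, Hsp90aa1, Ptges3, Ncoa1 and Ncoa2. Ahr rose with imazalil (0.67, adjusted p = 0.0408 in edgeR's test, 7.68% of probes higher), a call that 11 of 21 alternatives lost. The coactivator Ncoa2 fell with dithiopyr (-0.64, adjusted p = 0.0311, 6.74% of probes lower), a call lost under 9 of 21. Arnt, Hsp90aa1, Ptges3 and Ncoa1 passed with 0 of 29 chemicals in edgeR's test, with an unadjusted p under 0.05 for 0, 4, 5 and 2 of them and 0, 2, 1 and 1 calls by DESeq2. In the shallow sulforaphane library Ahr was lower by -3.63 and the co-chaperone Ptges3 higher by 2.21. In that library 2049 of 11055 probes were called lower and 1098 higher, so neither change is particular to these genes. Between the perfluorinated acids Ahr was lower with PFOA than with PFOS (-1.02, adjusted p = 0.0279).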

How the data were processed

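The authors deposited 1 table of whole-number counts, probes by libraries, which the values show to be raw. Alignment was by Bowtie, per the submitters' processing notes. The aligner's version, probe sequences and build are not given in the sources used here. Columns were matched to samples by their well labels, and 0 were left unmatched. The genes, lists and tests were chosen with earlier results of these data known.

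In R 4.3.3, edgeR 4.0.16 (TMM, quasi-likelihood F test, plate factor, Benjamini-Hochberg, threshold 0.05) was run on 11055 probes that reached 1.741 CPM, or 10 counts in a library of median depth, in 6 or more libraries. The tested term was log2(1 + dose in µM) over a chemical's 6 libraries and DMSO replicates 2 to 9, or an indicator for a reference library. DMSO libraries of other plates inform only the spread. Likeness was taken on log2 CPM (prior count 2). Counting intervals are exact Poisson. Amplified ligation products are not independent molecules. Named genes are the 3 members, called genes of 2 lists (AhR battery and receptor complex, up to 4 per chemical) and the 5 probes most like each member. Some genes under that rule are not reported here. Genes below the filter were named after their counts were seen. Alternatives were DESeq2 1.42.0, its size factors, no filter, no plate term, dose ranks, a principal component covariate, all DMSO libraries, and leaving out doses or single DMSO libraries. The dose trend script was tested on simulated data. Promoters are RefSeq's for GRCr8, with 2 of 3 members matched.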

Additional observations from a re-analysis of the deposited data

Results flagged for a closer look

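Tiparp was at 124.17 CPM in DMSO replicate 1, set apart from the other 8 DMSO libraries (20.9 to 45.0 CPM) by a gap above Dixon's 95% critical value for 9 samples. Such a gap arises by chance in about 1 group in 20. Cyp1a1 was at 0 CPM in the same library and Cyp1a2 at 26.7 CPM, the lowest of the 9.

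The dose trend of Tiparp differed between imidazole and triazole fungicides, by 0.54 on the log2 scale (adjusted p = 0.0448 in edgeR's test of the contrast). Of the 2 imidazoles imazalil passed when fitted alone and triflumizole did not (0.10, adjusted p = 0.999), and the contrast did not pass with DMSO replicate 1, with dose ranks or without the highest dose.

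Cyp1b1, which was below the filter on low counts, was at 9.25 CPM (43 counts) at 100 µM of fludioxonil, against at most 0.854 CPM in DMSO replicates 2 to 9. Aldh3a1, also below the filter, was at 3.24 CPM (15 counts) at 100 µM of cyprodinil, against at most 0.348 CPM.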

How the results depend on the processing

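Calls of Cyp1a1 numbered 7 of 29 chemicals, 11 by DESeq2, 11 with the first principal component as a covariate and 2 without the highest dose, with 5 to 10 when single DMSO libraries were left out. Cyp1a2 had 1 call, 0 with all DMSO libraries, with dose ranks or without the highest dose, 2 without the plate term, 5 by DESeq2 and 9 with the component, and 1 to 4 when DMSO libraries were left out, of which 4 came without replicate 5. Tiparp had 3 calls, 0 with all DMSO libraries, with dose ranks or without the highest dose, and 1 to 3 when DMSO libraries were left out, of which 1 came without replicate 2. Among references Cyp1a1 had 2 calls, and 1 with all DMSO libraries or without the plate term.

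The Cyp1a1 difference of imidazoles and triazoles passed at 2.80 by DESeq2 (adjusted p = 0.0231), at 2.51 with its size factors (0.0496), at 2.60 without the plate term (0.00716) and at 2.67 with dose ranks (0.0426). In edgeR's test it did not pass with all DMSO libraries (2.70, adjusted p = 0.124) or without the highest dose (3.43, adjusted p = 0.894). The Tiparp difference did not pass with all DMSO libraries (0.12), with dose ranks (0.53) or without the highest dose (0.20).

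Without the highest dose the sign turned for ametryn minus simazine (Cyp1a1 -0.34, Tiparp -0.53), acetochlor minus alachlor (Cyp1a1 -0.33, Tiparp -0.16), PFOA minus PFOS (Cyp1a2 0.42, Tiparp 0.75), Tiparp with cyproconazole (-0.093) and Cyp1a1 with dithiopyr (-2.99). With all DMSO libraries it turned for Tiparp in ametryn minus simazine (-0.33) and with dithiopyr (-0.62), imazalil (-0.38) and simazine (-0.69). It also turned for Tiparp in PFOA minus PFOS with DESeq2's size factors (0.033) and dose ranks (0.12), for Cyp1a1 with imazalil without the library at 11.1 µM (-0.056), and for Tiparp with oltipraz without the plate term (-0.088). The cause was not tested.

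Of 549 alternative fits of 29 named member values, 465 kept direction and side of the threshold. Tetraconazole and carbaryl kept their Cyp1a1 call under all 21 alternatives, with changes of 4.76 to 6.17 and 3.56 to 4.45. Fludioxonil, triflumizole and hexaconazole lost it only without the highest dose. The share of rises among calls was 57.1%, and 58.8% with DESeq2's size factors. Each dose has 1 library, and Cyp1a1 had 0 to 18 counts in the controls, which limits its fold changes. No paired analysis was possible because each dose has 1 library and the DMSO numbers only name libraries.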

Other observations

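Lowest-dose libraries were compared with the DMSO libraries of their own plate. Tiparp lay above all of them in 12 of 14 lowest-dose libraries on plate 1 (29.3 to 53.0 CPM, against 26.8 and 30.2) and in 12 of 14 on plate 2 (19.9 to 48.6 CPM, against 20.9 to 28.8), a share of 85.7% on both, where 33.3% and 22% of all tested probes did so. Cyp1a2 lay above them in 3 of 14 on plate 1 and 6 of 14 on plate 2. Plate 1 has 2 control libraries here and plate 2 has 3.

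Cyp2s1, a further battery gene, had at most 1 count in any library, and Arnt2 at most 3.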
